A study of Rattus norvegicus with 8 samples.

Results

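Ccl20 and Ccr6 are a chemokine and its receptor, and their transcripts were followed across 8 rat dorsal root ganglion libraries. Ccl20 (ENSRNOG00000015992) and Ccr6 (ENSRNOG00000012964) were chosen by symbol and are 2 of the 4351 genes listed in either of the deposited tables. Both genes are among the 4136 genes listed for imiquimod against untreated ganglia, and Ccr6 alone is among the 775 listed for lidocaine against imiquimod. Wild-type Sprague Dawley rats of 250 g made up all groups. The WT group was left untreated (n = 3). The IMQ group received imiquimod, which activates Toll-like receptor 7 and gives rodents a psoriasis-like inflammation, on its back skin over 6 days (n = 3). The lidocaine group had the same imiquimod course and epidural 1% lidocaine, a sodium channel blocker, for 4 days from day 3 (n = 2). Ganglia were taken on day 7, and the labels do not say which spinal levels were taken, whether animals were pooled, or whether each sample was a separate animal. They describe neither a vehicle cream in WT nor an epidural injection without lidocaine, so cream and drug, or injection and drug, cannot be told apart.

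Ccl20, also known as MIP-3 alpha, is a secreted CC chemokine that epithelial cells, macrophages and other cells make when interleukin 1, tumour necrosis factor or interleukin 17 activates NF-kB. Its one known chemokine receptor is Ccr6, a G protein-coupled receptor carried by interleukin 17-producing T cells, regulatory T cells, B cells and immature dendritic cells, and some beta-defensins bind that receptor too. In psoriatic skin the pair draws interleukin 17-producing T cells into the epidermis, and those cells in turn drive more Ccl20.

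The windows around the RefSeq gene starts are shown because NF-kB is the known inducer of Ccl20 in human and mouse cells. Each window runs from 250 bases before to 50 bases after the start, in RefSeq's GRCr8 build, at chr9:91836909-91837208 on the plus strand for Ccl20 and at chr1:55046079-55046378 on the minus strand for Ccr6. Capitals mark every match to GGGNNNNNCC, a loose form of the NF-kB motif, on either strand; overlapping matches run together.
Ccl20: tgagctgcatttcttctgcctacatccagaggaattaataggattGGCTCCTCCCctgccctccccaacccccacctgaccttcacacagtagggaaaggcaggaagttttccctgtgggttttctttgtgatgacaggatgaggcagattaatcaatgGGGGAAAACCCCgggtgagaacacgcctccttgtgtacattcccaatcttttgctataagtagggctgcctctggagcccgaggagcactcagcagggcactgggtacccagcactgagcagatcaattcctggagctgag
Ccr6: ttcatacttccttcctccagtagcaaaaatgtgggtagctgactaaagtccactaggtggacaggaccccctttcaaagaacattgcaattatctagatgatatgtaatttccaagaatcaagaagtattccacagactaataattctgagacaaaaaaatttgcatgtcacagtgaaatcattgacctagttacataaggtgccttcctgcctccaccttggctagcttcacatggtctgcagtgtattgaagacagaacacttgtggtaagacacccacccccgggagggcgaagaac
The Ccl20 window held a run of overlapping matches from base -91 to base -80 and a further match from -205 to -196, counted from the start, and the Ccr6 window held none. The loose motif is common and was present in 47.3% of all 33469 RefSeq promoter windows of this length, and in 59.3% of the 1836 windows that carried the symbol of a gene that rose with imiquimod. The letters GGGAAAACCC, searched on both strands after the Ccl20 window had been read, were in 43 of the 33469 windows (0.128%). The AP-1 letters TGANTCA, searched on both strands like those that follow, were in neither window, in 7.33% of all windows and in 8.71% of those 1836. The GC box letters GGGCGG, held by 33.1% of all windows and 45.6% of those 1836, were in neither. The TATA box letters, TATAAA, held by 14.2% of all windows and 12.5% of those 1836, were in neither. A higher share among genes that rose was thus not particular to the NF-kB letters. Such matches describe letters and not bound sites.

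Levels are log2(normalized count + 1), as mean ± SD where groups are summarised, and each difference is one group mean minus another, in log2 units. The value of 1 read after the authors' normalization could be read from the values, so reads per library are given as well. The inverse of that value, taken as relative depth, was 1.09 to 1.34 times the mean of the 8 libraries in WT, 0.808 to 0.912 in IMQ and 0.789 to 0.873 in lidocaine. WT libraries differed most among themselves, with a median chi-square per gene of 28.5 to 129 between pairs, against 2.33 to 6.61 for pairs of IMQ libraries over the same table. Over the genes listed for lidocaine against IMQ, the lidocaine pair gave 7.99 and the IMQ pairs gave 3.86 to 19.2. Nefm, a neurofilament of sensory neurons, was at 18.30, 18.77 and 18.93 in WT and lower in IMQ, at 17.64, 17.61 and 17.61. Its difference, IMQ minus WT, was -1.04 (limma adjusted p = 0.012). In bulk tissue, fewer cells of a type and less RNA per cell cannot be told apart.

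Ccl20 was nearly absent from untreated ganglia and clearly present in every ganglion sample of imiquimod-treated rats. In WT it had 3, 0 and 0 reads in replicates 1, 2 and 3, at levels of 1.66, 0 and 0. In IMQ it had 304, 89 and 173 reads, at levels of 8.52, 6.65 and 7.53. The groups did not overlap, and the lowest IMQ library stood 4.99 above the highest WT library; 57% of all listed genes were higher in IMQ without overlap. Group levels were 0.55 ± 0.96 in WT and 7.57 ± 0.93 in IMQ (SD, n = 3 and 3), a difference of 7.01 (SE 0.66, limma adjusted p = 0.000278). Scaled for depth, the 566 IMQ reads against 3 WT reads gave a ratio of 273, with a 95% exact interval of 93.1 to 1329.5 that covers counting error only. Ccl20 rose, as 58.9% of the listed genes did, and its difference on this scale was 12th from the top of 4136. An exact two-sided permutation test of the 6 values gave p = 0.1, the smallest that 3 against 3 allows. Ccl20 is not among the genes listed for lidocaine against IMQ, so its level in the lidocaine libraries was not analysed here.

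Ccr6 also rose with imiquimod, from a low level to a modest one. In WT it had 7, 0 and 3 reads, at levels of 2.60, 0 and 1.88 in replicates 1, 2 and 3. In IMQ it had 20, 32 and 24 reads, at 4.65, 5.20 and 4.73. All 3 IMQ libraries stood above all WT libraries, as for 57% of all listed genes, with the nearest pair 2.05 apart. The group levels were 1.49 ± 1.34 and 4.86 ± 0.30 (SD, n = 3 and 3), and the difference of 3.37 (SE 0.68) passed the test (limma adjusted p = 0.005; rank 303 of 4136). The depth-scaled ratio of 76 to 10 reads was 11.0 (95% exact interval 5.67 to 23.9, counting error only), and the exact two-sided permutation test gave p = 0.1, again the smallest possible. In RefSeq the span of the long non-coding gene LOC134482722 overlaps that of Ccr6. Overlap of exons was not examined, and no source used here gives the strand setting of the counting. Whether reads of the pair were mixed could therefore not be told.

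With epidural lidocaine added, Ccr6 was lower than with imiquimod alone. The lidocaine libraries had 7 and 5 reads, at levels of 3.27 and 2.72, and both stood below every IMQ library by at least 1.38. The group level was 2.99 ± 0.39 (SD, n = 2), and the difference from IMQ of -1.87 (SE 0.42) passed the test (limma adjusted p = 0.00806). The IMQ to lidocaine ratio of depth-scaled reads was 4.07 (95% exact interval 2.20 to 8.22, counting error only), and the exact two-sided permutation p was 0.1, the smallest possible here. Among all genes listed for this comparison, 87.1% fell and 89.2% were lower without overlap, and Ccr6 ranked 228th of 775 from the lowest difference. When reads were scaled to the total over the listed genes of each library, the Ccr6 difference was -0.75 and did not pass (limma adjusted p = 0.419); that scaling moved the median of all listed genes from -1.44 to -0.24, a shift of its own construction in a table where 90.6% of the genes are lower.

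The order of Ccr6 levels was WT, lidocaine, IMQ, and the lower neighbours did not differ beyond the test. Both lidocaine libraries lay above the highest WT library, by 0.12 at the nearest, where 52.7% of the 560 genes listed in both tables were higher in lidocaine without overlap. The difference between lidocaine and WT was 1.499 (SE 0.72, 95% interval -0.13 to 3.12, limma adjusted p = 0.127; exact two-sided permutation p = 0.2), and 37.5% of those genes passed as higher. Without WT replicate 1, the untreated library with the most Ccr6 reads, the difference was 2.05 and passed (limma adjusted p = 0.0348). These comparisons share the IMQ or the WT libraries with the ones above.

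**Figure D1:**
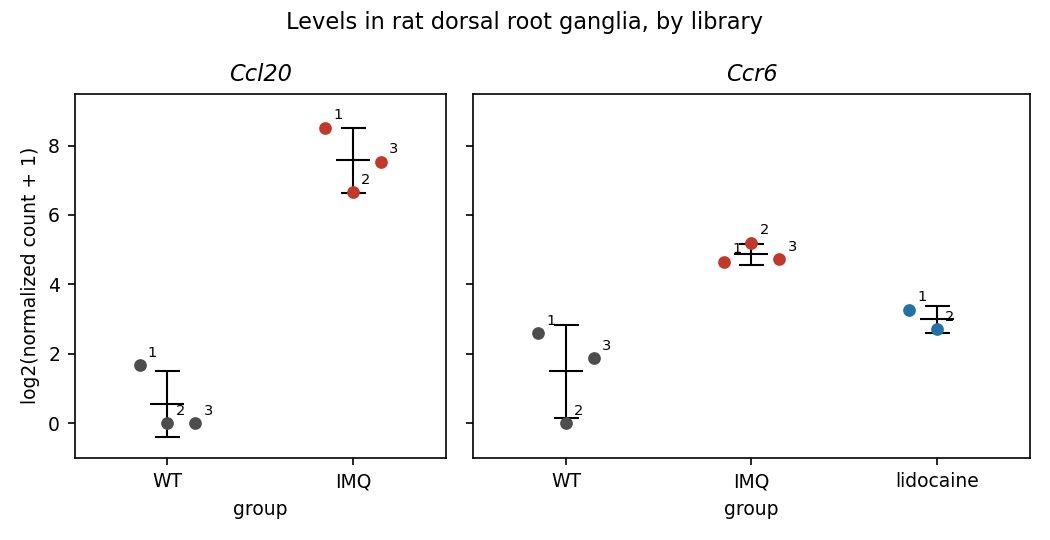
Points are libraries, numbered by replicate, and the y axis is log2(normalized count + 1); bars give the group mean and SD. Ccl20 runs from 0 to 1.66 in WT and from 6.65 to 8.52 in IMQ; Ccr6 in lidocaine (2.72 and 3.27) lies between the IMQ and WT libraries.

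The difference of Ccl20 between IMQ and WT was larger than that of Ccr6. Ccl20 minus Ccr6 was -0.94, 0 and -1.88 in WT and 3.87, 1.45 and 2.80 in IMQ, without overlap. The differences of the 2 genes were 3.65 apart (exact two-sided permutation p = 0.1, the smallest possible). Because both genes reach 0 reads in WT, the size of that gap depends on the 1 added before the logarithm.

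Among its own family, Ccl20 and Ccl3 showed the largest differences of the listed CC chemokines. Of 20 CC ligand symbols 13 were listed and 11 rose, in a table where 58.9% of all listed genes rose. Ccl27 fell and Ccl24 did not pass, and the median of the 13 was 2.18, against 1.25 over all listed genes. Ccl3, a macrophage chemokine, was at 2.21, 1.98 and 3.17 in WT and at 10.56, 6.78 and 9.26 in IMQ (6.41, SE 0.91, limma adjusted p = 0.00136). The standard errors of Ccl20 and Ccl3 overlapped, and their order depended on the setting. Ccl3 was above Ccl20 with 10 added before the logarithm (5.03 against 4.23), with reads scaled to the listed total (5.74 against 5.07) and without WT replicate 3 (6.77 against 6.74), while Ccl4, next in order, was at 3.69 (SE 0.87). The monocyte attractants Ccl2, Ccl7 and Ccl12 rose by 2.03, 2.64 and 3.50, and Ccl5, which T cells secrete, by 2.18. Ccl6 and Ccl9 rose by 1.86 and 3.40. The eosinophil attractant Ccl11 and the lymphoid chemokine Ccl19 rose by 1.30 and 1.21. Ccl27, a keratinocyte chemokine, fell from 8.01 ± 0.59 to 6.26 ± 0.59 (-1.75, SE 0.45, limma adjusted p = 0.0108), where 37% of the listed genes fell. Ccl24 had a difference of -1.10 (SE 0.49, limma adjusted p = 0.0583) and passed without IMQ replicate 2, at -1.48. Leaving out 1 library ended the calls of Ccl9 (IMQ 1 or IMQ 3), Ccl11 (WT 2 or any IMQ library) and Ccl19 (WT 2, IMQ 1 or IMQ 3), with adjusted p up to 0.0685, 0.0645 and 0.0852. All 14 listed CXC, CX3C and XC ligands rose as well, with a median of 4.04.

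Ccr6 rose together with the other listed chemokine receptors. All 15 listed receptors of 23 symbols rose, where 58.9% of all listed genes did, with a median of 3.56, or 3.37 with genes at 0 in WT set at their bound. Cxcr2 of neutrophils (5.44, SE 0.37), Cxcr3 of activated T cells (5.28, SE 0.73) and Xcr1 of cross-presenting dendritic cells (4.81, SE 0.79) led the order. The neighbours of Ccr6 in this order were Ccr2 of inflammatory monocytes (3.56, SE 0.52) and Ccr4 of skin-homing T cells (2.97, SE 0.58), and their standard errors overlapped that of Ccr6. With 10 added before the logarithm Ccr6 (1.62) stood above Ccr2 (1.41) as well as Ccr4 (0.90). Cx3cr1 (4.26), Cxcr6 (4.19), Ccr1 (2.92), Ccrl2 (1.75), Ackr3 (1.64) and Ccr3 (1.49) also rose. Ccr9 and Ccr8 had no read in WT; with 3 reads taken as the floor of each library, IMQ was at least 5.40-fold and 2.86-fold higher. The call of Ccr3 was lost without any one WT library, IMQ 1 or IMQ 3 (adjusted p up to 0.0763).

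**Figure D2:**
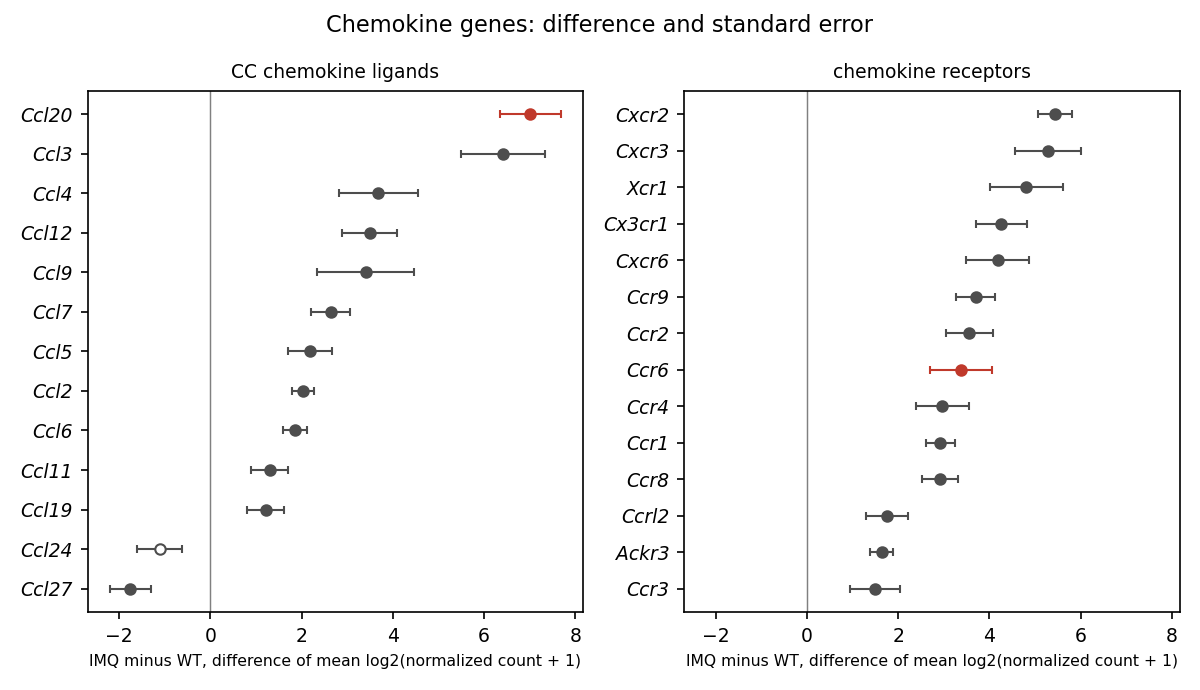
Points are differences of group means on the log2(normalized count + 1) scale, IMQ minus WT, and bars are their standard errors; open points did not pass the test. Ccl20 (7.01) and Ccl3 (6.41) stand above the other CC ligands, in an order that turns with 10 added before the logarithm, and Ccr6 (3.37) lies between Ccr2 (3.56) and Ccr4 (2.97) on the scale shown.

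The cytokines that induce Ccl20 rose with it. Of 11 symbols 6 were listed, 5 rose, as 58.9% of all listed genes did, and 1 fell; the median was 3.86, or 2.74 with the 3 genes at 0 in a whole group set at their bound. Il1b, which encodes interleukin 1 beta, was at 5.27, 5.74 and 4.09 in WT and at 11.88, 9.51 and 10.95 in IMQ (5.74, SE 0.67, limma adjusted p = 0.000589). Il1a was at 0, 2.23 and 0 in WT and at 8.41, 5.20 and 7.40 in IMQ (6.26, SE 0.95). Both interleukin 1 genes were thus higher in every IMQ library than in any WT library, as were 57% of all listed genes. Tnf and Il17a were at 0 in all 3 WT libraries. Tnf had 27, 40 and 24 reads in IMQ, at least 14.6-fold higher than that floor. Il17a, the cytokine of the T cells that carry Ccr6, had 6, 3 and 5 reads in IMQ and was at least 2.25-fold higher (limma adjusted p = 0.00187). Lta, lymphotoxin alpha, rose by 1.62. Il36g, an epithelial cytokine, fell, with 3, 9 and 15 reads in WT and 0 in all 3 IMQ libraries, at least 2.18-fold lower. Il23a, a subunit of the interleukin 23 that sustains interleukin 17-producing T cells, was 1.41 higher (SE 0.62, limma adjusted p = 0.0562) and passed without IMQ replicate 2 (2.04) and with reads scaled to the listed total (1.55).

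Receptors and signalling genes of these cytokines rose too, in a table where 58.9% of all listed genes rose and the median was 1.25. All 4 listed receptor subunits of 11 rose (median 2.63), with the tumour necrosis factor receptor Tnfrsf1b at 3.93 (SE 0.29), the interleukin 1 receptor Il1r1 at 2.99 (SE 0.61), its partner Il1rap at 2.27 and Tnfrsf1a at 1.13. All 12 listed genes of 25 in the NF-kB and interleukin 17 signalling list rose (median 1.87). They included the NF-kB cofactor Bcl3 (2.94, SE 0.30), the kinase Map3k8 (2.80, SE 0.42), the interleukin 1 adaptor Myd88 (1.61, SE 0.22) and Nfkbiz, a cofactor that interleukin 17 induces (1.97, SE 0.40). Genes that hold the cytokines in check rose in 5 of 5 listed cases of 9 symbols (median 3.05), with the receptor antagonist Il1rn at 5.82 (SE 0.30), the decoy receptor Il1r2 at 3.42 (SE 0.53) and the RNase Zc3h12a at 3.05 (SE 0.33). Of 20 other known targets of interleukin 1 and interleukin 17, 14 were listed and all 14 rose (median 3.76). Among these, Cxcl2 and Cxcl1, which attract neutrophils, rose by 8.31 (SE 0.98) and 5.54 (SE 0.56), the cytokine Il6 by 4.72 (SE 0.65) and the iron-binding Lcn2 by 3.51 (SE 0.61). Csf3, granulocyte colony-stimulating factor, was at 0 in WT and at least 76.0-fold higher in IMQ. No beta-defensin of the 6 symbols looked for was listed.

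Ccl20 varied among the IMQ libraries, and many of these genes varied in the same order. Its SD of 0.93 in IMQ was reached or exceeded by 118 of the 2435 genes that rose, whose median SD was 0.21. IMQ replicate 1 stood 1.87 above IMQ replicate 2, a gap that 67 of the 2435 genes reached. The order IMQ 1, IMQ 3, IMQ 2 was that of 710 of the 2435 genes (29.2%), and its reverse was that of 750 (30.8%). The Ccl20 order was also that of 12 of the 14 other interleukin 1 and interleukin 17 targets, of 8 of the 10 other CC ligands that rose, and of 8 of the 12 signalling genes. Among other lists it was that of 4 of the 5 brakes, 3 of the 5 inducers that rose and 2 of the 4 cytokine receptors. Of the 14 CXC, CX3C and XC ligands, 8 ran in that order and 4 in its reverse. Of the 14 chemokine receptors other than Ccr6, 5 ran in that order and 6 in its reverse. Summed over their 9 listed genes, neutrophil markers ran in the Ccl20 order too, at 13.83, 13.38 and 13.27, and meningeal and choroid plexus markers at 12.88, 12.12 and 11.55. So did summed endothelial markers (14.355, 14.194 and 13.97) and glial markers (15.997, 15.599 and 15.249). Regulatory T cell genes (8.25, 7.99 and 7.71) and keratinocyte markers (8.28, 7.52 and 6.27) shared that order as well. Sums of the T cell, B cell and sensory neuron lists ran in neither that order nor its reverse. Summed macrophage and monocyte markers ran in the reverse order, at 16.69, 16.85 and 17.03 in IMQ 1, IMQ 3 and IMQ 2. Summed dendritic cell genes did so as well, at 12.30, 12.56 and 12.75. Relative depth was 0.808, 0.912 and 0.868 in IMQ 1, IMQ 3 and IMQ 2. The part of cell makeup or depth in the order was not tested. Ccr6 had 20, 32 and 24 reads in IMQ 1, IMQ 2 and IMQ 3, too few to set an order among these libraries beyond counting error.

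Cell types known to carry Ccr6 were represented unevenly in the table, of which 58.9% of all genes rose. In the list of interleukin 17-producing and gamma-delta T cells 10 of 17 symbols were listed, 9 rose and none fell, with a median of 2.11, or 1.48 with Il17a at its bound. The T cell receptor subunit Cd3e was at 3.16, 2.63 and 4.17 in WT and at 7.11, 6.48 and 6.57 in IMQ (3.40, SE 0.48, limma adjusted p = 0.00135). Cd4, which rat macrophages carry as well, rose by 3.10 (SE 0.43), the costimulatory receptor Cd28 by 3.53 (SE 0.76) and the transcription factor Batf by 2.68 (SE 0.48). Cd3g, Cd2, Cd3d and Ahr rose by 1.61, 1.34, 1.25 and 1.03, and Il12rb1, at 1.10, did not pass (limma adjusted p = 0.053), although it did without WT replicate 3, with 10 added before the logarithm and with reads scaled to the listed total. Without WT replicate 2, 5 genes of the list passed in place of 9; the calls of Cd3g and Cd2 were lost without WT 2 or IMQ 2, that of Ahr without WT 2 or IMQ 1, and that of Cd3d without any one library but WT 3 (adjusted p up to 0.12). Il23r, the interleukin 23 receptor of these cells, was not among the listed genes. The summed level of the 10 genes was 9.74 to 10.69 in WT and 12.01 to 12.13 in IMQ. Cd4 and Ahr made up most of that sum, at group levels of 8.11 and 9.49 in WT and 11.21 and 10.51 in IMQ. Cd3e, the next highest in IMQ, was at 6.72 there on average. All 6 regulatory T cell genes rose (median 2.71, or 2.38 with Il10, at 0 in WT, set at its bound), among them Foxp3, which defines these cells (1.94, SE 0.42), Il2ra (1.91) and Ctla4 (2.95); their summed level was 5.25 to 6.49 in WT and 7.71 to 8.25 in IMQ.

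B cell and dendritic cell genes gave a mixed picture with imiquimod, beside the 58.9% of all listed genes that rose and the 37% that fell. Of 12 B cell symbols 3 were listed: the inhibitory receptor Cd22 rose by 3.03 (SE 0.45) and the coactivator Pou2af1 by 1.26, and the antigen receptor subunit Cd79a fell by 1.22. Without IMQ replicate 3 only Cd22 of these passed, and the Cd79a call was also lost without WT 2, WT 3, IMQ 1 or IMQ 2 (adjusted p up to 0.113). The summed level of the 3 genes was 7.49 to 8.56 in WT and 8.94 to 8.97 in IMQ. Of 15 dendritic cell symbols 8 were listed, and 7 rose and 1 fell (median 2.67), with Irf8, a factor these cells need, at 3.26 (SE 0.25) and Clec9a at 2.21 (SE 0.30). Their summed level was 10.33 to 11.20 in WT and 12.30 to 12.75 in IMQ. Among cells that can make Ccl20, 10 of 10 listed macrophage and monocyte markers rose, with summed levels of 13.39 to 13.55 in WT and 16.69 to 17.03 in IMQ. Of the neutrophil markers 9 of 9 rose (10.21 to 11.61 and 13.27 to 13.83), or 5 of 9 without WT 1, IMQ 1 or IMQ 3. All 8 listed endothelial markers, 5 meningeal and choroid plexus rows and 3 glial markers rose. Of 6 listed keratinocyte markers 5 fell and 1 rose. The 4 listed sensory neuron markers of 18 fell, though 1 or 2 of them passed without a single IMQ library. The part of these cells in the levels of Ccl20 and Ccr6 was not tested.

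The other listed chemokine receptors were lower with lidocaine too. All 12 of 23 symbols that were listed fell, Ccr6 included, with a median of -1.94, or -1.81 with Ccr8 at its bound, against -1.44 over all listed genes; scaled to the listed reads, 10 were lower and 2, Cxcr2 and Cx3cr1, were higher. Cxcr6 fell most, from 5.65, 5.94 and 5.79 in IMQ to 2.84 and 2.45 (-3.15, SE 0.37, limma adjusted p = 0.00266). Cxcr3 fell with a difference of -2.68, the scavenger receptor Ackr2 with -2.38, Xcr1 with -2.27 and Ccr7, which guides dendritic cells and T cells to lymph nodes, with -2.01. Ccr1, Ccrl2, Cx3cr1 and Cxcr2 fell with differences of -1.74, -1.26, -1.16 and -1.12. Ccr8 was at 0 in both lidocaine libraries and at least 1.92-fold lower than in IMQ. The call of Cxcr3 was lost without lidocaine replicate 1 (-1.83, adjusted p = 0.0538), and that of Ccrl2 without IMQ 1, IMQ 3 or either lidocaine library (adjusted p up to 0.179). Of CC ligands only Ccl4 and Ccl5 were listed, with differences of -1.64 and -1.01. Both passed (limma adjusted p = 0.033 and 0.0244), but neither did without IMQ 1, IMQ 3 or lidocaine 1, and Ccl4 was also lost without lidocaine 2 (-2.19).

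**Figure D3:**
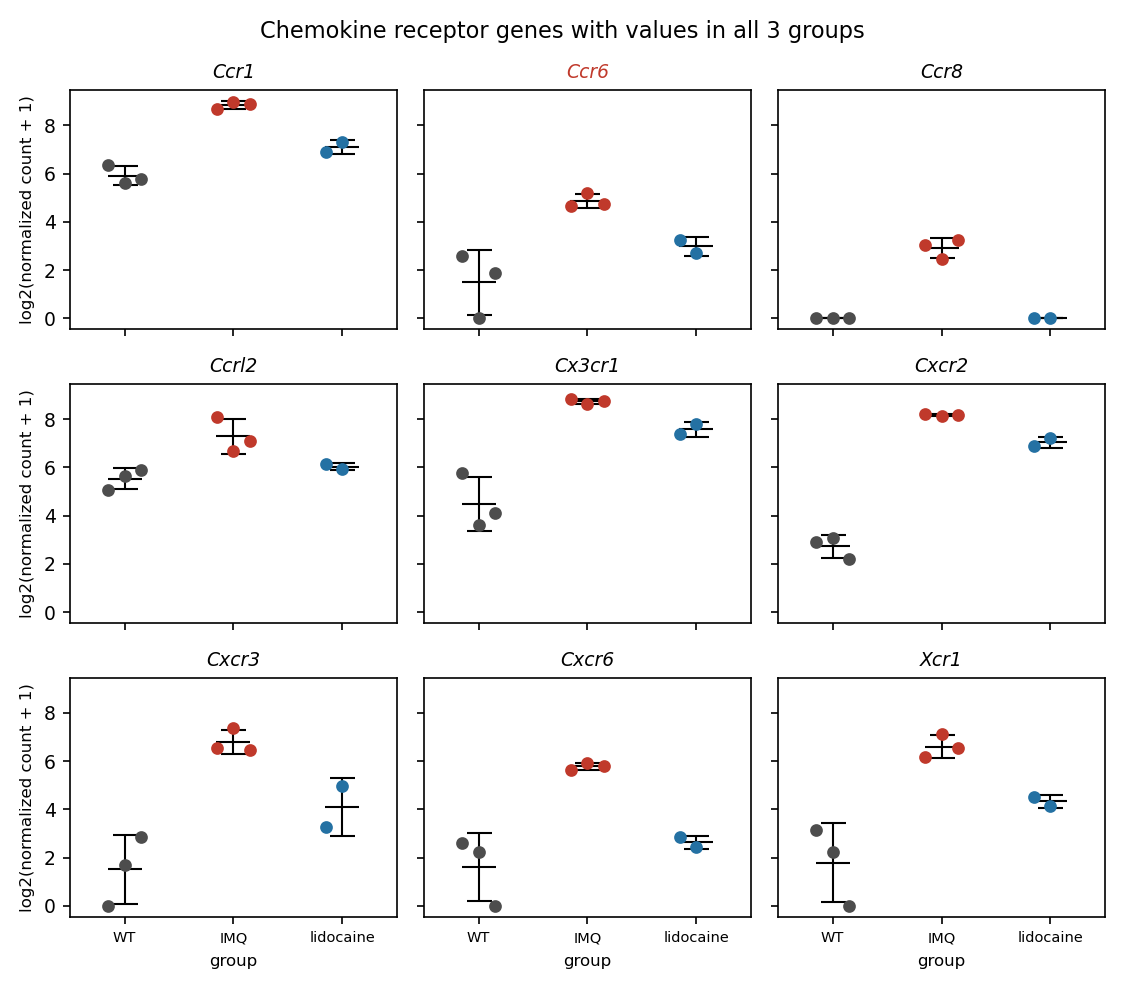
Each panel is a chemokine receptor gene listed in both comparisons, with libraries as points, group mean and SD as bars, and log2(normalized count + 1) on a shared y axis. The IMQ libraries lie highest in every panel, and the lidocaine libraries of Ccr6, at 2.72 and 3.27, sit just above its WT libraries.

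T and B cell genes were lower under lidocaine beside Ccr6, in a comparison where 87.1% of all listed genes fell, with a median of -1.44. The counts of falling genes below are therefore close to the share over all listed genes. All 4 listed genes of the T cell list fell, with Cd3e at -1.64 (SE 0.33), Cd3g at -1.89 (SE 0.41), Cd2 at -1.41 and Cd3d at -3.23; the call of Cd3d was lost without lidocaine replicate 1 (adjusted p = 0.0506). Their summed level was 7.77 to 8.14 in IMQ and 6.18 to 6.38 in lidocaine. All 7 listed B cell genes fell (median -2.21), with Pou2af1 at 7.83, 7.65 and 7.89 in IMQ and 3.74 and 4.47 in lidocaine (-3.69, SE 0.33), Cd79b at -2.57, Ms4a1 at -2.21, Blk at -2.12, Cd79a at -1.30 and Cd22 at -1.17. Calls of Ms4a1 and Cd79a were lost without lidocaine replicate 1 (-1.51 and -1.08). Their summed level was 9.49 to 9.62 in IMQ and 7.39 to 7.61 in lidocaine. Unlike Ccr6, Pou2af1 and Cd79a were lower in both lidocaine libraries than in every WT library. In WT, Pou2af1 was at 5.91, 6.88 and 6.80. Cd79a was at 6.51, 7.81 and 7.90 in WT and at 4.68 and 5.11 in lidocaine. Cd22, the other B cell gene listed in both comparisons, had risen by 3.03 with imiquimod and differed by -1.17 here. Foxp3 and Tnfrsf18 of regulatory T cells fell with differences of -1.79 and -2.24, and the Foxp3 call was lost without lidocaine replicate 1 (adjusted p = 0.0562). All 8 listed dendritic cell genes fell as well, with a summed level of 12.22 to 12.66 in IMQ and 10.92 to 11.04 in lidocaine. Macrophage, neutrophil, endothelial and meningeal markers fell in 5 of 5, 8 of 8, 4 of 4 and 4 of 4 listed genes, and without lidocaine replicate 1 passed in 3 macrophage, 3 neutrophil and 2 meningeal genes. The part of these cells in the Ccr6 level was not tested.

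The listed inducers of Ccl20 were lower under lidocaine, as were 87.1% of all listed genes (median -1.44). Ccl20 itself is not listed for this comparison, so no change of it can be read from its inducers. Il17a and Lta are not listed for it either. Il1b was at 8.76 and 8.43 (-2.19, SE 0.64, limma adjusted p = 0.0178) and Il1a at 4.68 and 4.15 (-2.59, SE 0.89). Both were below all 3 IMQ libraries, as were 89.2% of all listed genes. Tnf had 0 and 9 reads (-3.37, SE 0.97), and Il36b had 3 and 0 reads, against 17, 16 and 14 in IMQ (-3.10, SE 0.68). These 4 listed inducers of 11 fell, but 1 passed without lidocaine replicate 1 and 2 without lidocaine replicate 2; the calls of Il1b and Il1a ended without either lidocaine library, and that of Tnf without lidocaine replicate 1 (-1.64). Il1a was also lost without IMQ 1 or IMQ 3. Il23a fell with a difference of -2.09 (SE 0.75), a call lost without IMQ 1, IMQ 3 or either lidocaine library (adjusted p up to 0.267). The 6 listed cytokine brakes (median -1.20) and the 5 listed signalling genes (median -1.19) fell, both by less at the median than all listed genes; 1 and 2 of them passed without lidocaine replicate 1, and 3 and 2 without lidocaine replicate 2. Both listed cytokine receptors fell (median -1.47), and 1 of them passed without IMQ 1, IMQ 3 or either lidocaine library. Of 9 other targets 7 fell, and the matrix proteases Mmp3 and Mmp13 rose, with differences of 1.60 and 1.24. Without lidocaine replicate 1 or 2, 2 of the 9 passed; the calls of Mmp3 and Mmp13 were also lost without IMQ 2 or IMQ 3 (adjusted p up to 0.288 and 0.314).

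Genes with the profile nearest to Ccl20 over the 6 WT and IMQ libraries were sought among 3639 named genes that averaged 10 or more normalized counts. Likeness was the root mean square difference between log2 values after each gene's own mean was subtracted, and its median over these genes was 2.99. The nearest were Cxcl13, a B cell attractant (0.37), Clec4e, the macrophage receptor Mincle (0.38), the niacin receptor Hcar2 (0.57), the kininogen gene Kng1 (0.72), Csf3 (0.85) and Il1rn (0.88). Cxcl13 was at 5.75, 5.07 and 4.75 in WT and at 12.84, 11.78 and 12.22 in IMQ, so that it rose as Ccl20 did, from a level well above 0. For Ccr6 the search ran over all 8 libraries and 503 genes listed in both tables, with a median of 1.08. The nearest were Hif3a, a hypoxia-inducible factor subunit (0.47), the Toll-like receptor gene Tlr12 (0.51), Cd80, a costimulatory ligand on antigen-presenting cells (0.56), Rn60_20_0032.9 (0.58), LOC100911215 (0.58) and Slamf8, a macrophage surface protein (0.59). Cd80 was at 4.08, 2.94 and 3.55 in WT, at 6.39, 6.55 and 6.71 in IMQ and at 4.75 and 5.44 in lidocaine.

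**Figure D4:**
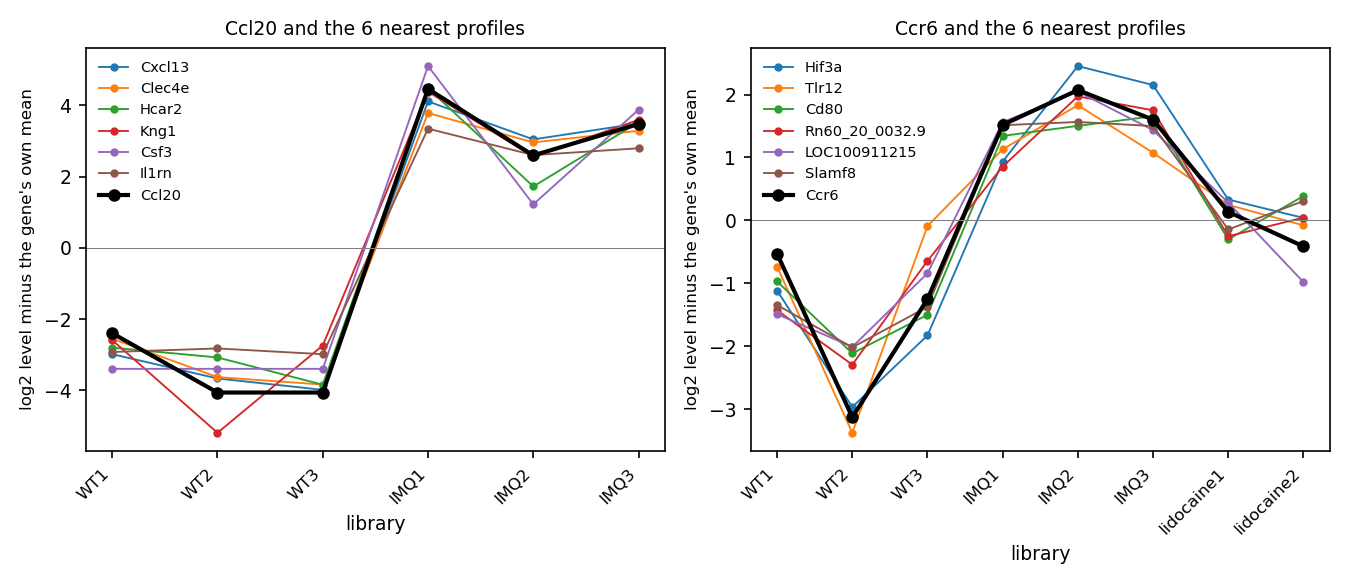
Lines join the values of a gene across libraries, as log2 level minus the gene's own mean, for Ccl20 over 6 libraries and Ccr6 over 8 (black) and the 6 genes with the smallest root mean square difference from each (colours). IMQ 2 is the lowest IMQ library in all 7 lines of the Ccl20 panel, and Ccr6 is highest in IMQ 2. The coloured genes were chosen for likeness over these same libraries, so shared shapes follow in part from that choice.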

How the data were processed

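RNA was sequenced from dorsal root ganglia of 8 rat samples, grouped by title. Per the submitters' processing notes, bcl2fastq, STAR 2.5.3a and DESeq2 were used, without their roles; for genome build, annotation and counting tool, the entry is: not given in the sources used here. The authors deposited 2 tables of log2 values, log2(normalized count + 1) per library. This scale was read from the values: less 1 on the linear scale, 100% of those up to 2000 reads fell on whole multiples of a step set by the library (tolerance 0.02 reads). Group means differ by at least 1.00 for every listed gene, so the tables are selections of changed genes, and other genes are not analysed here. Reads over listed genes ran from 4311091 to 9035486 per library for IMQ against WT and from 254922 to 778890 for lidocaine against IMQ; these sums are not library depths. IMQ values agree between tables within 4.98e-09.

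Each comparison was fitted with limma 3.58.1 (R 4.3.3, mean-variance trend) over all listed genes with a mean normalized count of at least 1, with Benjamini-Hochberg adjustment over the table and a threshold of 0.05. Lidocaine against WT was fitted over 3 groups on the 560 genes in both tables. "Rose" and "fell" mean past that threshold. Since the listed genes had already been selected, p-values measure how evenly a difference ran through these samples, which may be technical replicates. No libraries of a group agreed within counting noise: the smallest median chi-square per gene between a pair was 2.33. Intervals and floors (3 reads per library) cover counting error only.

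Members and the 21 gene lists were chosen with earlier results of these data known. Named are both members, all listed members of the inducer, CC ligand, receptor and T cell lists, leading genes by adjusted p of the others (in part; others of these are left out for space; a few listed genes count in their lists but are not reported here by name or in figures) and the 6 nearest profiles. Alternatives were pseudocounts of 0.1 and 10, no filter or a mean of at least 50, a threshold of 0.01, scaling to listed reads, limma-voom on recovered reads, a replicate block, and each library left out. The limma step was tested on simulated data. Promoter sequences are from RefSeq (GRCr8), and both members matched by symbol.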

Additional observations from a re-analysis of the deposited data

How the results depend on the processing

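Ccl20 rose with imiquimod under all 14 alternatives that gave a value, at 4.23 to 9.38 (limma adjusted p at most 0.00282), and Ccr6 under all 13, at 1.62 to 4.64 (at most 0.0234); without single libraries they ranged from 6.54 to 7.57 and from 2.62 to 3.92. The Ccr6 decrease under lidocaine held in 11 of 12, with -2.15 to -1.59 without single libraries, and ended when reads were scaled to the listed total (-0.75). Ccr6 in lidocaine against WT ranged from 0.75 to 2.05 without single libraries (limma adjusted p 0.0348 to 0.371). A mean normalized count of at least 50 removed Ccr6. Taking away the filter could change nothing, because every listed gene had passed it (4136, 775 and 560 genes in the 3 fits), though it is counted among the alternatives. Ccl20 had no value under lidocaine. Whether replicate numbers pair samples could not be decided. Deviations of same-numbered libraries from their group means correlated at -0.159, -0.058 and -0.118 (IMQ, WT) and at 0.0163 and 0.044 (lidocaine, IMQ). Deviations within a group cancel out, so with 2 or 3 libraries these values are not free of each other. With the replicate block, differences were 7.01 for Ccl20 and 3.37, -1.93 and 1.56 for Ccr6, and no call of the members changed; Il23a, IMQ minus WT, passed with it (limma adjusted p = 0.041). Genes past the threshold were 3965 and 733; at 0.01 they were 1895 and 354. For lidocaine against IMQ they were 453 with a mean of at least 50 and 136 scaled to listed reads. Without single libraries counts ran from 2455 (without IMQ 3) to 3949 and from 387 (without lidocaine 1) to 694, and without WT 2 to 2477. Scaled to listed reads, the lidocaine differences of Ccl5, Cx3cr1, Cxcr2 and Cd22 turned to 0.21, 0.072, 0.11 and 0.049. Reads limit precision: Ccr6 rests on 10, 76 and 12 reads in WT, IMQ and lidocaine, and Ccl20 on 3 in WT.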
